A study of Mus musculus with 29 samples.

Results

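A set of 9 genes of the type I interferon response is described in mouse liver, out of 54532 genes in the count table. They were found by matching the table's Ensembl identifiers to 9 symbols: the receptor subunits Ifnar1 and Ifnar2, the receptor-bound kinases Jak1 and Tyk2, the signal transducer Stat2, the transcription factors Irf1, Irf7 and Irf9, and the inhibitor Socs1. The matching used no expression value, but the 9 genes were chosen with earlier results of these data known. The study asks what happens in the liver when the transcription factor Prox1 can no longer carry SUMO, a small protein that is joined to lysines of its targets. In the K556R allele the acceptor lysine of Prox1 is replaced by arginine, and the allele was knocked in for hepatocytes only. All mice were males on chow until 8 weeks of age, when Cre recombination induced the allele, and all groups, WT included, then ate a diet of 45% fat and 20% fructose for 18 weeks. Livers were taken refed or fasted at ZT 15 to 17, counted in hours from lights on.

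The groups are K556R refed (8 livers), WT refed (6), K556R fasted (7) and WT fasted (8), each divided over batch 1 and batch 2 as the labels name them. What drives or delivers Cre, and whether WT mice received it, is not stated in the labels; the library titles call K556R livers Cre and WT livers Ctrl. Poly-A RNA of whole liver was sequenced, so values mix hepatocytes with the other liver cells, and fewer cells of a type and less RNA per cell cannot be told apart. Libraries held 19065976 to 27278251 counts in batch 1 and 14385218 to 23526145 in batch 2. The labels do not say whether replicates are different mice, and p-values thus cover the spread among libraries, which may be technical in part. Whole-gene counts of Prox1, which do not show the allele, averaged 149.7 CPM (read counts scaled to the depth of the library, SD 25.5, n = 8) in K556R refed and 164.1 (SD 22.7, n = 6) in WT refed livers, and 186.4 (SD 12.3, n = 7) in K556R fasted and 174.0 (SD 13.0, n = 8) in WT fasted livers. The hepatocyte marker Alb averaged 60818 CPM and was counted in all 29 livers. A pair of refed libraries stand apart: K556R replicate 4 of batch 1 had the lowest sums of all 29 for markers of endothelial (138.9 CPM), stellate (202.6 CPM) and dendritic cells (7.54 CPM), and WT replicate 1 of batch 2 the second lowest for stellate (227.0 CPM) and dendritic cells (9.25 CPM). Without both, the differences of Irf7, Irf9 and Stat2 between genotypes, given below, were 0.84, 0.47 and 0.21 in refed livers and 0.90, 0.51 and 0.25 in the mean of both states.

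Type I interferons bind a receptor made of IFNAR1 and IFNAR2. The kinases TYK2 and JAK1 on its inner face then phosphorylate STAT2 and a partner STAT protein, which join IRF9 to form ISGF3, a factor that enters the nucleus and switches on antiviral genes through a DNA element called ISRE. IRF7, itself a product of that programme, drives further interferon production. IRF1 is induced mainly by interferon gamma through STAT dimers that bind a GAS element, and SOCS1 is an inducible inhibitor that closes the loop at the kinases.

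All 9 genes passed the filter on low counts. On a scale of CPM per kilobase of exon, which allows genes to be compared, Jak1 (15.6, SD 1.19, n = 29 libraries), Stat2 (14.9, SD 1.98) and Irf7 (14.2, SD 6.91) stood highest, and their differences lay within the spread over libraries. Ifnar2 followed at 10.9 (SD 1.35), then Irf9 at 7.39 (SD 1.84), Irf1 at 6.24 (SD 1.26) and Ifnar1 at 6.13 (SD 0.779), whose ranges overlapped. Tyk2 was lower at 3.71 (SD 0.384). Socs1 was the lowest at 0.194 (SD 0.248), with 2 to 58 counts per library against at least 304 for each of the other 8 genes. Irf7 had the widest spread of the well-counted genes, from 7.72 to 30.4 CPM per kilobase.

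Promoter sequences are shown for the 4 genes whose window held letters of an ISRE or GAS element in a part that can be shown, and for Irf7, the gene with the largest difference between genotypes in the mean of both feeding states. RefSeq (GRCm38.p6, the assembly called mm10 in the study's files) gives 11 windows for the 9 genes, each from 250 bases before to 50 after a start site. They were searched on both strands for GAAA, any 2 bases, GAAA (ISRE) and for TTC, any 3 bases, GAA (GAS, the same on both strands). Of all 32851 promoter windows, 3.44% hold the ISRE letters and 8.3% the GAS letters. The ISRE letters occur in the windows of Stat2 and Socs1. The GAS letters occur in those of Ifnar1, Ifnar2 and Irf1, the one in Ifnar1 lying across the start site. Neither motif was found in the windows of Jak1, Tyk2, Irf7 or Irf9, which says only that these letters are not in these windows. In the lines below the capitals mark the matched letters, read 5′ to 3′ on the gene's strand: chr10:128270248-128270315 (plus strand) for Stat2, chr16:10785574-10785649 (minus) for Socs1, where 2 overlapping ISRE matches run together, chr11:53769894-53769962 (plus) for Irf1, and chr16:91372539-91372607 (plus) for Ifnar2.
Stat2: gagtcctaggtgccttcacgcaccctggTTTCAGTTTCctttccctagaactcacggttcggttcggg
Socs1: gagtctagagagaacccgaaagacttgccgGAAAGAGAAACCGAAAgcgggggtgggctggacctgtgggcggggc
Irf1: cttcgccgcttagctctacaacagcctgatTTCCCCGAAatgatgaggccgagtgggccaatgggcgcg
Ifnar2: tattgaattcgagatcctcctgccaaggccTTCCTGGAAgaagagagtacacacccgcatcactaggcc

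The Stat2 match begins at base -222 and reads as an ISRE on the opposite strand, the Socs1 matches at -83 and -77, the Irf1 match at -90 and the Ifnar2 match at -214, counted from the start site. For Irf7 the stretch shown, without capitals since no letters matched, is chr7:141266482-141266674 on the minus strand, from base -250 to base -58, where annotated exons begin.
Irf7: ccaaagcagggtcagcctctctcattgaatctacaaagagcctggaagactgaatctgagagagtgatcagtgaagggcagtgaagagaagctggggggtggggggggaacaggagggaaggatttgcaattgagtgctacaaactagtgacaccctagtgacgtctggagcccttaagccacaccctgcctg

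**Figure D1:**
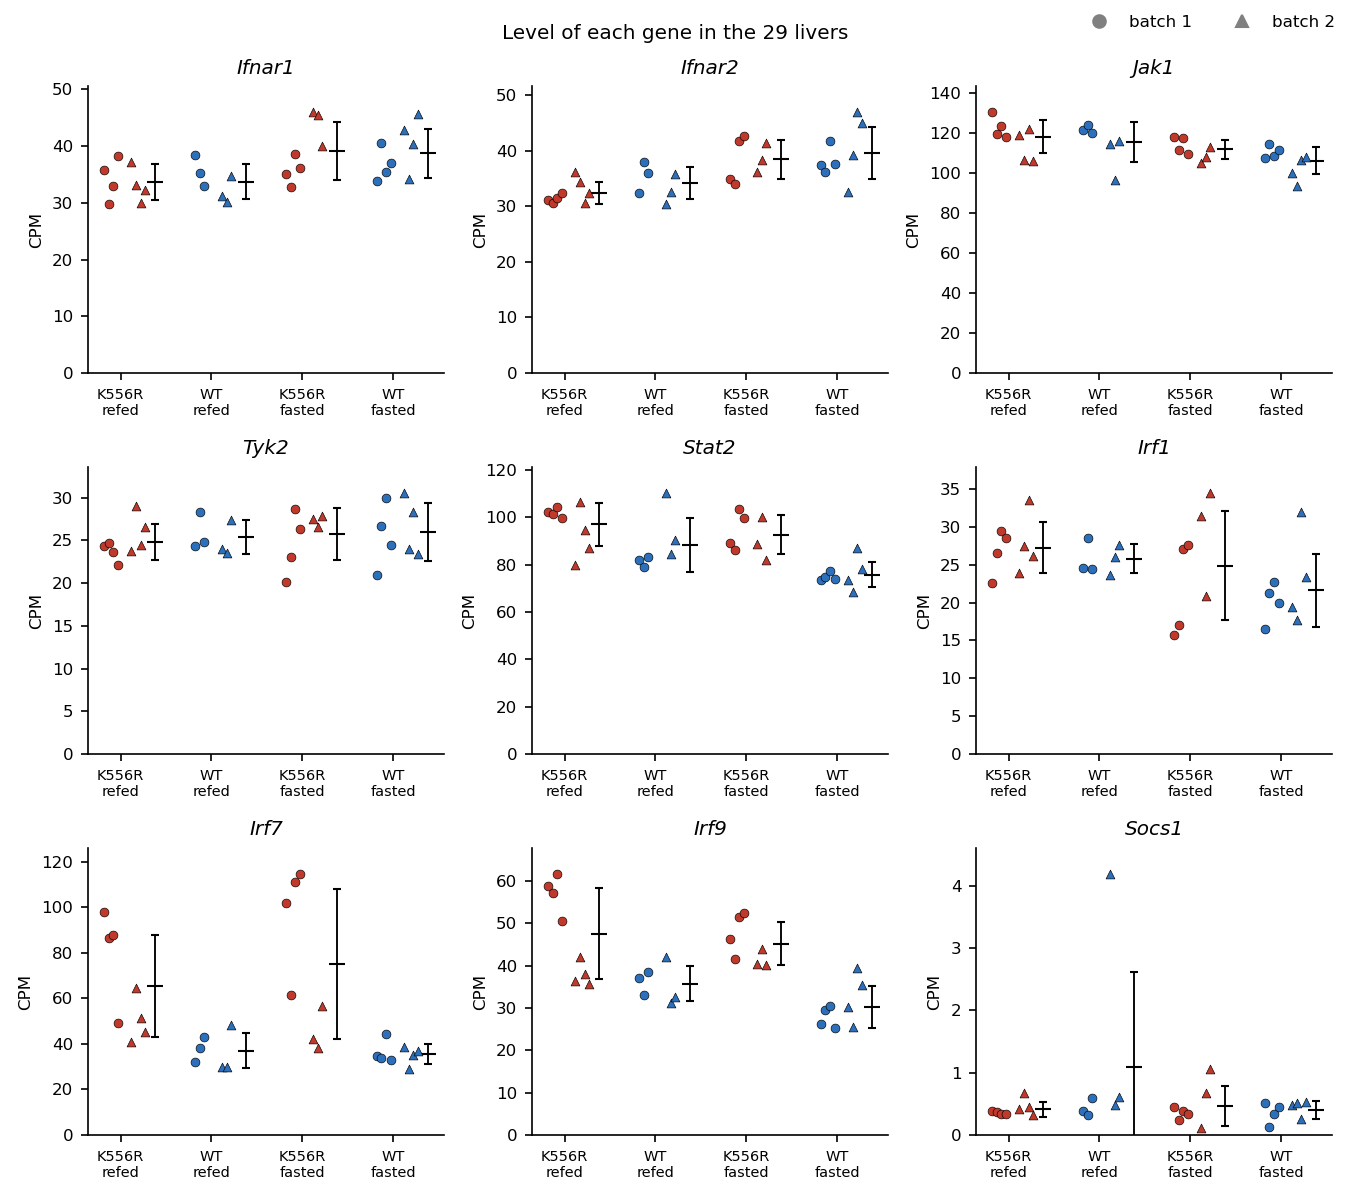
CPM of each gene in each of the 29 livers, by group on the x axis; circles are batch 1 and triangles batch 2, and the black bar is the mean with its SD. Irf7 in K556R livers of batch 1 reaches 97.9 CPM when refed and 114.6 CPM when fasted, above every WT liver, while Ifnar1, Ifnar2, Jak1 and Tyk2 overlap between genotypes.

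Irf7 (ENSMUSG00000025498, mm10 chr7:141262706-141266481, minus strand) showed the largest difference between genotypes among the 9 in fasted livers and in the mean of both states. In batch 1 refed livers it stood at 97.9, 86.4, 87.8 and 49.0 CPM in K556R and at 32.1, 38.4 and 43.2 CPM in WT. In batch 1 fasted livers it stood at 102.0, 61.3, 111.0 and 114.6 CPM in K556R and at 34.9, 33.7, 44.1 and 32.7 CPM in WT. Every K556R liver of batch 1 was thus above every WT liver in its feeding state, and the K556R livers differed among themselves, with 1 refed and 1 fasted liver well below the other 3 of their group. In batch 2 the refed livers had 40.8, 64.4, 51.5 and 45.2 CPM in K556R and 29.7, 30.04 and 48.3 CPM in WT. The batch 2 fasted livers had 42.2, 38.2 and 56.7 CPM in K556R and 38.5, 29.2, 35.3 and 36.8 CPM in WT. The genotypes overlapped in batch 2 in both states. Over both batches 12 of the 15 K556R livers lay above all WT livers of the same batch and state. The same count was 12 for Irf9, 10 for Stat2, 7 for Jak1, 6 for Irf1 and 1 to 3 for the other genes. Jak1 and Irf1 passed no test between genotypes given below. Each set has 3 or 4 WT livers, and the share of all tested genes apart like this, here and below, was not computed.

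The fit behind all p-values given here is edgeR's quasi-likelihood test over 15603 genes, with batch as a term, and calls are made where the p-value, adjusted by Benjamini-Hochberg over all those genes, is below 0.05. Irf7 was higher in K556R than in WT fasted livers by 0.97 on the log2 scale (SE 0.183, adjusted p = 0.0316). In refed livers the difference was 0.78 (SE 0.192, adjusted p = 0.158), which did not pass. As the mean of both states Irf7 rose by 0.87 (SE 0.133, adjusted p = 0.000934). Within batch 1 the mean difference was 1.25 (SE 0.152, adjusted p = 0.000633) and within batch 2 it was 0.44 (SE 0.137, adjusted p = 0.478). The difference between the batches, 0.82 (SE 0.218), did not pass over all genes either (adjusted p = 0.43, unadjusted 0.000892). The fasted call was lost on leaving out any of 8 libraries, all fasted: in batch 1 K556R replicates 1, 3 and 4 and WT replicates 1, 2, 3 and 4, and in batch 2 K556R replicate 3, with values of 0.88 to 0.98. The mean of both states was called in all 29 such fits, at 0.83 to 0.95.

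Irf9 (ENSMUSG00000002325, mm10 chr14:55603571-55610030, plus strand), the DNA-binding subunit of ISGF3, showed a smaller difference of the same kind. In batch 1 refed livers it stood at 58.9, 57.2, 61.6 and 50.5 CPM in K556R and at 37.0, 33.1 and 38.5 CPM in WT. In batch 1 fasted livers it stood at 46.4, 41.7, 51.4 and 52.5 CPM in K556R and at 26.3, 29.5, 30.6 and 25.2 CPM in WT. The genotypes were apart in both states of batch 1. In batch 2 refed livers Irf9 had 36.5, 42.1, 38.0 and 35.7 CPM in K556R and 42.0, 31.2 and 32.7 CPM in WT, which overlap. In batch 2 fasted livers it had 40.3, 44.0 and 40.2 CPM in K556R and 30.2, 25.6, 39.4 and 35.4 CPM in WT, and here every K556R liver was above every WT liver by a narrow margin.

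By edgeR's test Irf9 was higher in K556R than in WT fasted livers by 0.56 (SE 0.112, adjusted p = 0.0415), and the refed difference of 0.40 (SE 0.118, adjusted p = 0.286) did not pass. The mean of both states was 0.48 (SE 0.0815, adjusted p = 0.00182), with 0.72 (SE 0.0693, adjusted p = 0.000151) within batch 1 and 0.23 (SE 0.0935, adjusted p = 0.531) within batch 2. The difference of 0.49 between batches (SE 0.118) did not pass over all genes (adjusted p = 0.343, unadjusted 0.000286). Within batch 1 alone the refed difference was 0.66 and passed (adjusted p = 0.0292), against 0.11 within batch 2 (adjusted p = 0.754). In fits that each left out 1 of the 29 libraries the fasted difference ran from 0.51 to 0.63 and was called in 16; the 13 libraries whose removal ended the call were the 8 named for Irf7 and K556R fasted replicate 1, WT fasted replicate 2, K556R refed replicate 2 and WT refed replicate 3 of batch 2 and WT refed replicate 1 of batch 1. Their adjusted p-values ran up to 0.144. The mean of both states was called in all 29, at 0.45 to 0.52.

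Stat2 (ENSMUSG00000040033, mm10 chr10:128270559-128292849, plus strand), the STAT protein particular to type I and type III interferon signalling, was higher by a modest amount. In batch 1 refed livers it stood at 102.1, 101.3, 104.3 and 99.96 CPM in K556R and at 81.9, 78.9 and 83.1 CPM in WT. In batch 1 fasted livers it stood at 89.1, 86.4, 103.6 and 99.7 CPM in K556R and at 73.4, 74.7, 77.4 and 74.1 CPM in WT. Both states were apart in batch 1, and the WT livers there were close to each other. In batch 2 refed livers Stat2 had 80.1, 106.7, 94.6 and 87.3 CPM in K556R and 110.3, 84.5 and 90.6 CPM in WT, and in batch 2 fasted livers 88.8, 99.99 and 81.9 CPM in K556R and 73.6, 68.6, 86.9 and 78.3 CPM in WT. The highest Stat2 level of all was thus in a WT liver, refed replicate 1 of batch 2. The fasted difference of 0.29 (SE 0.0724) did not pass (edgeR adjusted p = 0.104), though DESeq2 called it (0.29, adjusted p = 0.0256), nor did the refed one of 0.14 (SE 0.0757, adjusted p = 0.64), which was 0.33 within batch 1 and -0.045 within batch 2. The mean of both states was 0.21 (SE 0.0525) and passed (adjusted p = 0.0354), with 0.33 within batch 1 (SE 0.0496, adjusted p = 0.00319) and 0.10 within batch 2 (SE 0.0827, adjusted p = 0.727). That call held in 16 of the 29 fits that each left out 1 library, at 0.20 to 0.25 with adjusted p up to 0.0834. The 13 that ended it were, in batch 1, K556R fasted replicates 3 and 4, K556R refed replicates 1, 2 and 3, WT fasted replicates 1 and 4 and WT refed replicates 1, 2 and 3, and in batch 2 K556R fasted replicate 2, K556R refed replicate 2 and WT refed replicate 2.

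Among the 9 genes, therefore, 2 were called in fasted livers (Irf7 and Irf9), against 0.103% of all tested genes. In the mean of both states 3 were called (Irf7, Irf9 and Stat2), against 1.24%. The 9 genes were chosen with earlier results of these data known, so these shares are not independent evidence. In refed livers 0 of the 9 were called, against a background of 0% of all genes; at an unadjusted p under 0.05 there were 3 of the 9 and 1319 of all genes, DESeq2 called 1 of the 9 (Irf7) and 45 genes in all, and limma-voom called 0. The median log2 difference of the 9 genes was 0.21 in fasted livers, 0.034 in refed livers and 0.050 in the mean of both, with 0.0022 or less for the median of all tested genes. No decrease was called among them in these 3 comparisons.

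**Figure D2:**
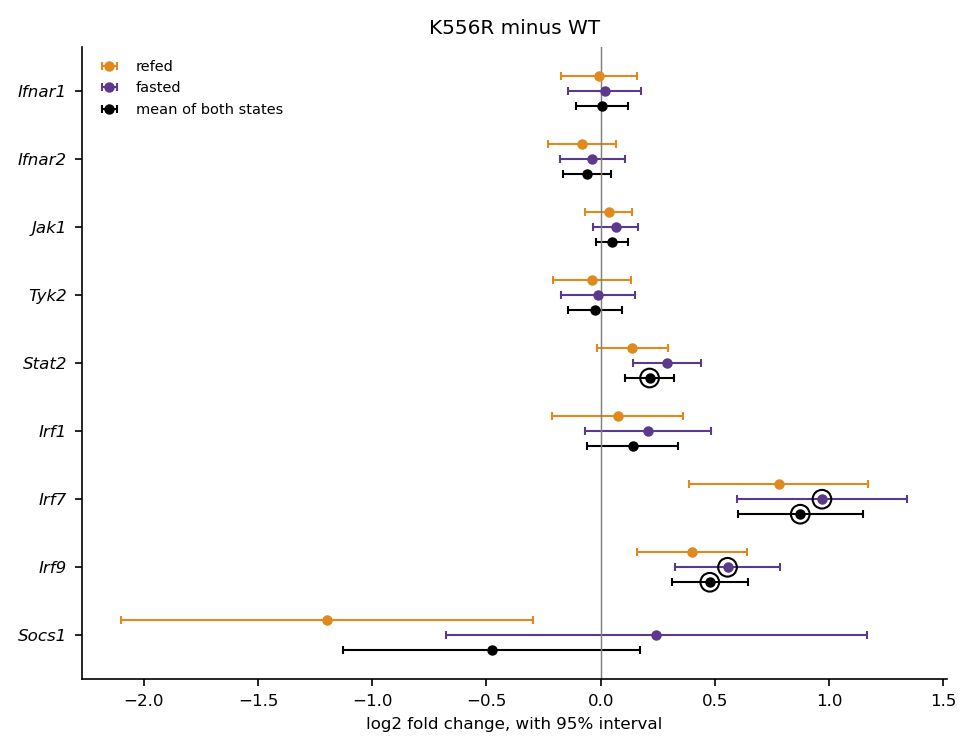
K556R minus WT as a log2 fold change for each gene, with its 95% interval, in refed livers, fasted livers and as the mean of both; open rings mark calls by edgeR at an adjusted p below 0.05. Irf7, Irf9 and Stat2 have positive values throughout, with rings at 0.97 and 0.56 for fasted Irf7 and Irf9. For the mean of both, rings are at 0.87, 0.48 and 0.21 for Irf7, Irf9 and Stat2. The refed interval of Stat2 crosses 0 (-0.017 to 0.29), as do all intervals of the receptor and kinase genes.

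The receptor subunits did not differ between genotypes beyond the spread of the libraries. Ifnar1 (ENSMUSG00000022967, mm10 chr16:91485238-91507441, plus strand) ran from 29.7 over a median of 33.1 to 38.3 CPM in K556R refed livers and from 30.1 over 33.8 to 38.5 CPM in WT refed livers. It ran from 32.8 over 38.6 to 46.0 CPM in K556R fasted and from 33.9 over 38.7 to 45.7 CPM in WT fasted livers. The genotype difference was -0.0059 in refed livers (95% interval -0.17 to 0.16, edgeR adjusted p = 0.989) and 0.017 in fasted livers (-0.14 to 0.18, adjusted p = 0.971). Ifnar2 (ENSMUSG00000022971, mm10 chr16:91372783-91405589, plus strand), which ends 79649 bases before Ifnar1 begins, ran from 30.7 over 32.0 to 36.3 CPM in K556R refed and from 30.5 over 34.3 to 38.0 CPM in WT refed livers. In fasted livers it ran from 34.1 over 38.4 to 42.7 CPM in K556R and from 32.6 over 38.5 to 47.0 CPM in WT. Its genotype difference was -0.082 refed (-0.23 to 0.067, adjusted p = 0.808) and -0.038 fasted (-0.18 to 0.10, adjusted p = 0.92). Their refed and fasted levels are compared further on.

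The kinases were at like levels too. Jak1 (ENSMUSG00000028530, mm10 chr4:101152367-101265282, minus strand) ran from 105.8 over 119.2 to 130.5 CPM in K556R refed and from 96.3 over 118.1 to 123.9 CPM in WT refed livers, and from 104.8 over 111.3 to 118.3 CPM in K556R fasted and from 93.3 over 107.8 to 114.6 CPM in WT fasted livers. Its genotype difference was 0.034 refed (95% interval -0.068 to 0.14, edgeR adjusted p = 0.891) and 0.066 fasted (-0.032 to 0.16, adjusted p = 0.709), the narrowest intervals of the 9 genes. Tyk2 (ENSMUSG00000032175, mm10 chr9:21104068-21131243, minus strand) ran from 22.1 over 24.4 to 29.1 CPM in K556R refed and from 23.6 over 24.6 to 28.4 CPM in WT refed livers, and from 20.1 over 26.6 to 28.7 CPM in K556R fasted and from 20.9 over 25.6 to 30.5 CPM in WT fasted livers. Its differences were -0.037 (-0.21 to 0.13, adjusted p = 0.936) and -0.011 (-0.17 to 0.15, adjusted p = 0.984). A p that misses the threshold does not show equal levels; the intervals give what the data allow.

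Irf1 (ENSMUSG00000018899, mm10 chr11:53770014-53778374, plus strand) varied widely in fasted K556R livers, from 15.6 over 27.1 to 34.4 CPM, against 16.5 over 20.5 to 32.0 CPM in WT fasted livers. Refed livers ran from 22.6 over 27.01 to 33.5 CPM in K556R and from 23.6 over 25.3 to 28.5 CPM in WT. The difference was 0.21 fasted (SE 0.134, edgeR adjusted p = 0.664) and 0.075 refed (SE 0.140, adjusted p = 0.922). In the 4 fasted K556R livers of batch 1 Irf1 stood at 15.6, 17.0, 27.1 and 27.5 CPM, that is in a lower and a higher pair. This order was not particular to Irf1. Replicates 3 and 4 also stood above replicates 1 and 2 for Ifnar2 (35.0, 34.1, 41.8 and 42.7 CPM), Stat2 (89.1, 86.4, 103.6 and 99.7 CPM), Ifnar1, Tyk2 and Irf9. For Irf7 (102.0, 61.3, 111.0 and 114.6 CPM) they did too, but replicate 2 alone lay far below. Jak1 and Socs1 did not have this order.

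Socs1 (ENSMUSG00000038037, mm10 chr16:10782240-10785536, minus strand) was close to the limit of detection. It ran from 0.327 over 0.374 to 0.677 CPM in K556R refed livers and from 0.317 over 0.538 to 4.19 CPM in WT refed livers. In fasted livers it ran from 0.108 over 0.392 to 1.06 CPM in K556R and from 0.131 over 0.461 to 0.531 CPM in WT. The value of 4.19 CPM, 58 counts, belongs to 1 liver, WT refed replicate 1 of batch 2, and no other liver passed 1.06 CPM. The refed genotype difference of -1.2 (SE 0.440, edgeR adjusted p = 0.432) did not pass, and was -0.27 without that liver (adjusted p = 0.926). The fasted one was 0.24 (SE 0.450, adjusted p = 0.92).

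**Figure D3:**
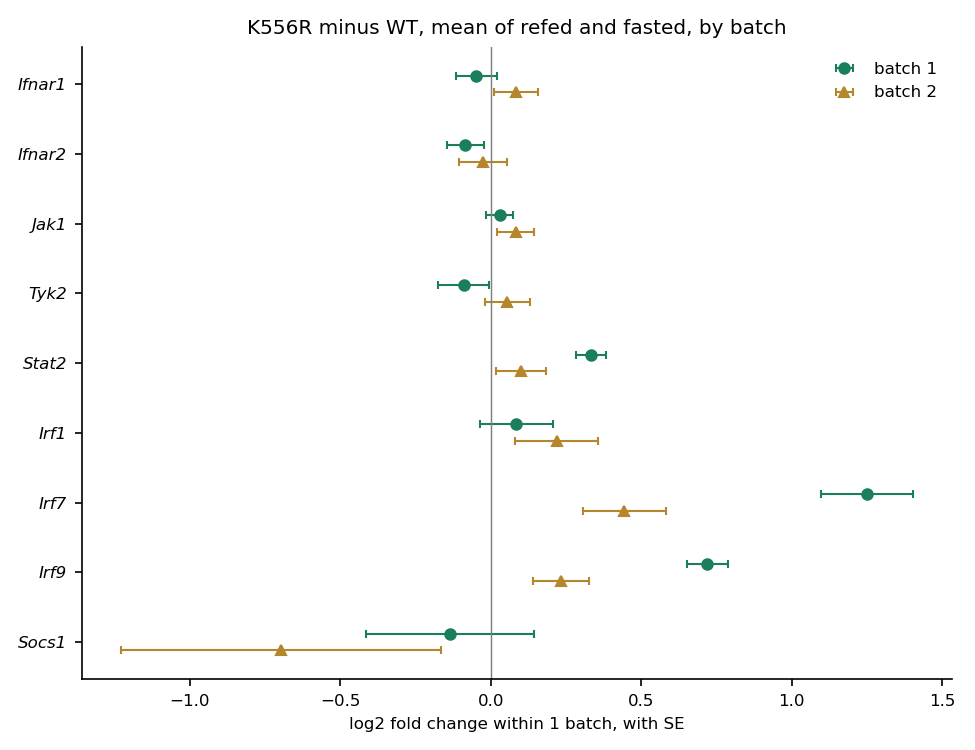
K556R minus WT as a log2 fold change fitted within batch 1 (circles) and within batch 2 (triangles), each the mean of refed and fasted with its SE. Irf7 is at 1.25 in batch 1 and 0.44 in batch 2, Irf9 at 0.72 and 0.23, and Stat2 at 0.33 and 0.10. Irf1 is at 0.085 in batch 1 and 0.22 in batch 2, and the wide Socs1 bar in batch 2 includes the liver at 4.19 CPM.

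The difference between batches was tested for each gene in a fit with 1 coefficient per group and batch. By edgeR's test it passed for 0 of the 9, against 0% of all genes; an unadjusted value under 0.05 was reached by 3 of the 9 (Irf7, Irf9 and Stat2) and by 1358 of all genes, and no other tool was run on it. No genotype call of the 9 genes held in batch 2 alone, where 0 genes of the whole table were called in fasted livers. All 20 genes of the ISGF3 target list described below also had a larger K556R minus WT difference in batch 1 than in batch 2, by a median of 0.69, with 0 called.

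Refeeding lowered Ifnar2 in K556R livers by 0.25 on the log2 scale (SE 0.0698, edgeR adjusted p = 0.0119), a call that held in all 29 fits leaving out 1 library. In batch 1 the K556R livers stood at 31.1, 30.7, 31.5 and 32.4 CPM refed and at 35.0, 34.1, 41.8 and 42.7 CPM fasted. These do not overlap. In batch 2 they stood at 36.3, 34.3, 30.7 and 32.4 CPM refed and at 36.3, 38.4 and 41.4 CPM fasted, where the highest refed and the lowest fasted liver meet. In WT livers the refeeding difference was -0.21 (SE 0.0730, adjusted p = 0.0655), with ranges of 30.5 to 38.0 CPM refed and 32.6 to 47.0 CPM fasted; it became a call without WT refed replicate 2 of batch 1 (-0.24, adjusted p = 0.0416) or WT fasted replicate 1 of batch 2 (-0.24, adjusted p = 0.0218). Only the K556R value passed, and the test of the difference between the genotypes gave -0.044 (SE 0.101, adjusted p = 1), so the effect is not shown to differ between them.

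Ifnar1 showed -0.22 on refeeding in K556R livers (SE 0.0777, edgeR adjusted p = 0.0553) and -0.19 in WT livers (SE 0.0816, adjusted p = 0.135). In batch 2 the K556R livers stood at 37.2, 33.1, 30.04 and 32.3 CPM refed and at 46.0, 45.5 and 40.1 CPM fasted, which do not overlap. The difference was -0.42 within that batch, where it passed (adjusted p = 0.0144), against -0.047 within batch 1 (adjusted p = 0.815); whether it differs between batches was not tested. The K556R value over both batches became a call at an adjusted p of 0.0357 without K556R fasted replicate 2, of 0.0476 without K556R refed replicate 1 and of 0.0236 without K556R refed replicate 4, all of batch 1.

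None of the other 7 genes was called on refeeding over both batches. Stat2 gave 0.065 in K556R (SE 0.0723, edgeR adjusted p = 0.618) and 0.22 in WT livers (SE 0.0753, adjusted p = 0.063), and in batch 1 the WT livers at 81.9, 78.9 and 83.1 CPM refed were all above those at 73.4, 74.7, 77.4 and 74.1 CPM fasted. The WT value of Stat2 became a call in 3 fits, without WT refed replicate 2 of batch 1 (adjusted p = 0.0378), K556R refed replicate 1 of batch 2 (0.0415) or WT fasted replicate 3 of batch 2 (0.0298), and was 0.14 without WT refed replicate 1 of batch 2 (adjusted p = 0.221). Irf9 gave 0.076 in K556R (SE 0.111, adjusted p = 0.718) and 0.23 in WT (SE 0.117, adjusted p = 0.237), with the WT livers of batch 1 again apart and a difference of 0.39 within that batch (adjusted p = 0.0334). Irf7 gave -0.14 in K556R (SE 0.179, adjusted p = 0.669) and 0.050 in WT (SE 0.189, adjusted p = 0.915). Jak1 gave 0.087 and 0.12 and Irf1 0.13 and 0.26 in K556R and WT livers, Tyk2 -0.058 and -0.032, with adjusted p-values of 0.138 or more. In WT livers of batch 1 Irf1 was apart, at 24.5 to 28.5 CPM refed and 16.5 to 22.8 CPM fasted. So was Jak1, at 120.2 to 123.9 CPM refed and 107.7 to 114.6 CPM fasted. These sets hold 3 refed and 4 fasted livers, and the share of all tested genes apart in them was not computed. Being apart there is therefore not read by itself as a response to refeeding. The WT value of Jak1 became a call, at 0.16 (adjusted p = 0.0309), without WT refed replicate 2 of batch 2. Socs1 gave -0.21 in K556R (adjusted p = 0.819) and 1.2 in WT livers (SE 0.441, adjusted p = 0.0713); the WT value was 0.31 without WT refed replicate 1 of batch 2 and became a call, at 1.39 to 1.41, without any of 3 other WT refed livers (replicate 2 of batch 1 and replicates 2 and 3 of batch 2).

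On refeeding 1 of the 9 genes was called in K556R livers, against 15.4% of all tested genes, and 0 of 9 in WT livers, against 10.7%; in WT 5 of the 9 (Ifnar1, Ifnar2, Jak1, Stat2 and Socs1) had an unadjusted p under 0.05, with 3609 of all genes, and DESeq2 called 1, Stat2. Of the 9, 1 called gene in K556R and 0 in WT do not stand above the share called over all genes. The refed and fasted comparisons share libraries with the genotype comparisons. The interaction, the refed minus the fasted genotype difference, was called for 0 of the 9 by edgeR, against 0% of all genes; at an unadjusted p under 0.05 there were 1 of the 9 (Socs1) and 440 of all genes, and DESeq2 and limma-voom called 0.

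**Figure D4:**
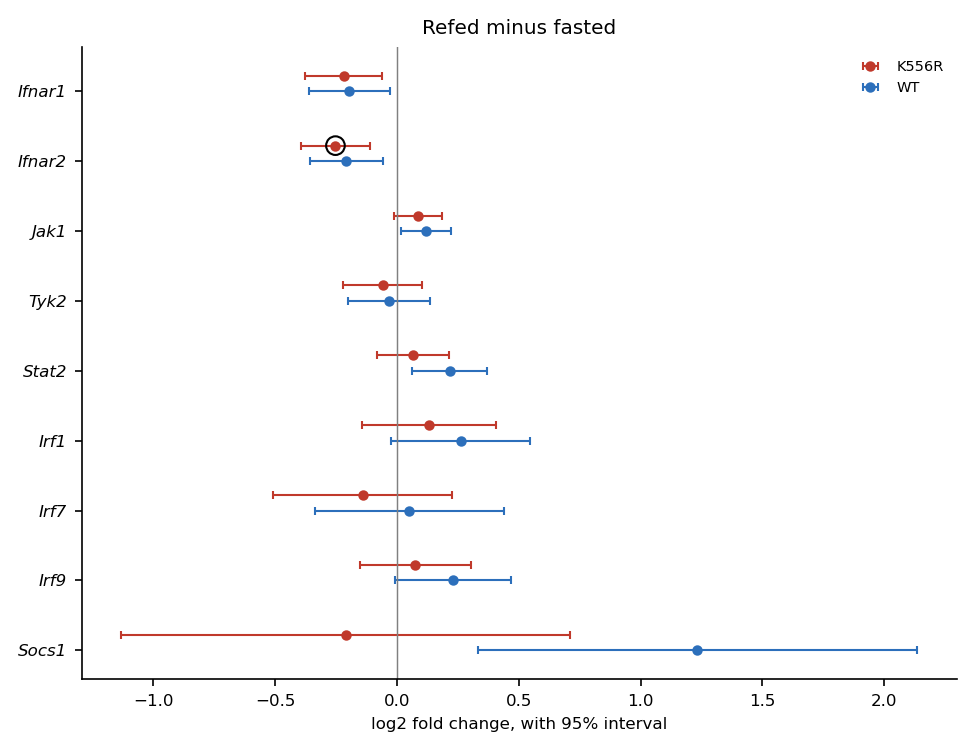
Refed minus fasted as a log2 fold change for each gene, with its 95% interval, in K556R and in WT livers; the open ring marks the call by edgeR at an adjusted p below 0.05. Ifnar2 is at -0.25 in K556R, with its ring, and -0.21 in WT, Ifnar1 at -0.22 and -0.19, and the wide Socs1 bar in WT includes the liver at 4.19 CPM.

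Genes that ISGF3 is known to switch on were nearly all called higher in K556R livers when both states were averaged. Of 20 listed, all 20 had a positive difference in refed livers, in fasted livers and in the mean of both, with median differences of 0.74, 0.84 and 0.79. By edgeR's test 0 were called in refed livers; the smallest p-values there belonged to Rtp4 (0.86, SE 0.181, adjusted p = 0.116), Xaf1 (0.88, SE 0.186, adjusted p = 0.116) and Oasl1 (0.74, SE 0.166, adjusted p = 0.122). In fasted livers 2 were called, against 0.103% of all genes, Ifi44 (1.5, SE 0.296, adjusted p = 0.0403) and Rtp4 (0.85, SE 0.171, adjusted p = 0.0415). In the mean of both states 19 were called higher, against 1.24% of all genes. The largest were Ifi44 (1.29, SE 0.215), the antiviral RNA-binding protein Ifit1 (1.12, SE 0.190), Oas1g, Oas3 and Oas1a of the 2-5A synthetases that activate RNase L (1.09, 0.91 and 0.89), and Rtp4 and the ubiquitin-like modifier Isg15 (0.86 each). Bst2, which tethers virus particles to the cell, was the one not called (0.33, SE 0.0970, adjusted p = 0.0779). On refeeding Oasl1 alone of the 20 was called, rising by 0.70 in K556R (adjusted p = 0.00227) and by 0.50 in WT livers (adjusted p = 0.0495). Of all genes 15.4% were called on refeeding in K556R and 10.7% in WT livers, so 1 of 20 does not stand above the background. Family members such as the Oas1 and Ifit3 genes are close copies, so their counts are uncertain. The list overlaps what earlier results of these data showed and is not independent evidence.

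Of the target genes of interferon gamma a smaller number was called. Of 17 listed, 15 had a positive difference in refed livers (median 0.21, 0 called), 15 in fasted livers (median 0.45, 0 called) and 16 in the mean of both (median 0.38, 6 called, against 1.24% of all genes). In the mean of both edgeR called Gbp6 (0.96, SE 0.172, adjusted p = 0.00277), Gbp3 (0.92, SE 0.156, adjusted p = 0.00182), Irgm2 (0.64, SE 0.123, adjusted p = 0.00507), Igtp (0.64, SE 0.122, adjusted p = 0.00507), Irgm1 (0.49, SE 0.0850, adjusted p = 0.00185) and Gbp7 (0.46, SE 0.0985, adjusted p = 0.0125). These are GTPases that act on intracellular pathogens, and type I interferon induces several of them too. With 0 called, the smallest p-values in fasted livers belonged to Irgm1 (0.55, adjusted p = 0.0506), Gbp3 (0.94, adjusted p = 0.0667) and Gbp6 (1.02, adjusted p = 0.0679), and in refed livers to Gbp3 (0.91, adjusted p = 0.158), Gbp6 (0.90, adjusted p = 0.254) and Irgm1 (0.44, adjusted p = 0.254). On refeeding Irgm1 rose by 0.36 in K556R (adjusted p = 0.0354) and by 0.47 in WT livers (adjusted p = 0.0104). Nlrc5 fell by 0.30 in K556R and Cxcl10 rose by 0.85 in WT livers. Of the 17, then, 1 was called higher and 1 lower in K556R and 2 higher in WT livers. Of all genes 15.4% were called on refeeding in K556R and 10.7% in WT livers, so these counts are near the background.

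Sensors of foreign nucleic acid, which lie upstream of interferon production, had 5 of 15 called higher in the mean of both states by edgeR, against 1.24% of all genes called, and 0 in either state alone, against 0% refed and 0.103% fasted. These were Zbp1 (0.76, SE 0.141, adjusted p = 0.00351), Dhx58 (0.53, SE 0.0905, adjusted p = 0.00182), the RNA sensors Ifih1 and Ddx58 (0.43, SE 0.0802, adjusted p = 0.00351, and 0.41, SE 0.0697, adjusted p = 0.00182) and Trim25 (0.25, SE 0.0588, adjusted p = 0.0266), the ligase that acts on DDX58. On refeeding the adaptor Myd88 fell by 0.46 in K556R (adjusted p = 2.96e-05) and by 0.37 in WT livers (adjusted p = 0.00123), Trim25 and Tbk1 fell in K556R livers (by 0.27 and 0.21, adjusted p = 0.0231 and 0.0266), and Tlr7 fell in WT livers by 0.93 (adjusted p = 0.0174). That is 3 of 15 in K556R, against 15.4% of all genes, and 2 of 15 in WT, against 10.7%, near the background. The test of the difference between genotypes passed for none of these genes.

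Of 17 other negative regulators, Usp18, which removes ISG15 and blocks the receptor at IFNAR2, was the one called between genotypes. Its difference was 1.24 in fasted livers (SE 0.228, edgeR adjusted p = 0.0296) and 1.16 in the mean of both (SE 0.168, adjusted p = 0.000702). In refed livers it was 1.07 (SE 0.245, adjusted p = 0.122). Of all genes 0.103% were called in fasted livers and 1.24% in the mean of both. On refeeding in K556R livers 3 fell, Socs2 by 1.5 (adjusted p = 0.00631), Socs3 by 0.76 (adjusted p = 0.0491) and Socs7 by 0.28 (adjusted p = 0.0182), and Socs5 rose by 0.35 (adjusted p = 0.0198); 15.4% of all genes were called there, so 4 of 17 is near the background. In WT livers 0 were called on refeeding; Socs4 (0.22), Socs2 (-0.85) and Socs3 (-0.54) had the smallest p-values, with adjusted p of 0.169, 0.206 and 0.245.

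Of the 8 other IRF genes and IRF2-binding proteins 0 were called between genotypes in either state or in their mean, where Irf2bp2 (-0.26, edgeR adjusted p = 0.179) and Irf2bp1 (-0.11, adjusted p = 0.523) had the smallest p-values. Irf2bp2, a repressor that partners IRF2, fell on refeeding by 0.46 in K556R (adjusted p = 0.0167) and by 0.73 in WT livers (adjusted p = 0.000875). That is 1 of the 8 in each genotype, against 15.4% of all genes in K556R and 10.7% in WT livers. Of 12 other receptor, JAK and STAT genes 11 were tested. Between genotypes 1 was called, in the mean of both states, where 1.24% of all genes were called. On refeeding 2 of the 11 fell in K556R livers, Ifngr2, a chain of the interferon gamma receptor, by 0.49 (adjusted p = 2.42e-05) and Stat5a by 0.33 (adjusted p = 0.0311). In WT livers 2 fell, Ifngr2 by 0.37 (adjusted p = 0.00222) and Stat3 by 0.38 (adjusted p = 0.0301). Of all genes 15.4% were called on refeeding in K556R and 10.7% in WT livers, so 2 of 11 is near the background.

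None of the listed targets of other STAT proteins was called between genotypes. Of 13 acute-phase genes of the STAT3 pathway 0 were called between genotypes by edgeR in either state or their mean (median -0.084 in the mean, where Saa1 had the smallest p at -0.30, adjusted p = 0.398), and of 10 STAT5 targets of growth hormone 0 (median -0.057, Onecut1 -0.53, adjusted p = 0.473). On refeeding Saa3 fell by 1.03 and Lcn2 by 0.74 in K556R livers (adjusted p = 0.0012 and 0.0198), and Lcn2 fell by 0.92 and Saa1 by 0.80 in WT livers (adjusted p = 0.00906 and 0.026). Of the STAT5 targets Socs2 and Onecut1 (by 1.35, adjusted p = 0.048) fell in K556R livers and 0 were called in WT. These are 2 of 13 STAT3 genes in each genotype and 2 of 10 STAT5 genes in K556R livers. Of all genes 15.4% were called on refeeding in K556R and 10.7% in WT livers, near these counts.

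The interferons themselves were at the edge of detection. Of 21 interferon genes listed, 0 passed the filter. Ifnb1 had 2 counts over all 29 libraries, Ifng had 29 counts in 12 libraries with at most 4 in one, and Ifnk had 59 counts in 16 libraries. A difference between genotypes was not detectable at this depth for any of them.

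Across the 29 libraries, with batch means removed, Irf7 ran with Xaf1 (Pearson correlation 0.928), Gbp3 (0.916) and Ifi44 (0.904), the 3 genes nearest to it among 10988. Irf9 was nearest to Apol9a (0.941), Apol9b (0.931) and Irgm1 (0.918), and Stat2 to Irf9 (0.872), Irgm1 (0.840) and Apol9a (0.838). These include listed interferon targets and near-identical copies. Irf1 had other neighbours, Tnfaip2 (0.819), Ptbp1 (0.767) and Bcl3 (0.746). The receptor and kinase genes had none of the listed targets near them: Slc23a2 (0.842) and Ncor1 (0.814) for Ifnar1, Tmem184a (0.854), Rbpms (0.841) and Zfp777 (0.803) for Ifnar2, Ppm1f (0.729), Acnat1 (0.714) and Irgq (0.704) for Jak1, and Polm (0.701), Lrrc45 (0.653) and Fam219a (0.634) for Tyk2. Socs1, at few counts, was nearest to Vmp1 (0.667), Adcy4 (0.658) and Abhd17b (0.633). The points share libraries, groups and depth, and these values are a description.

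Among the 9 genes the closest pair was Stat2 and Irf9, at 0.872, and 0.828 when group means were removed as well, so that the 2 ran together among livers of 1 group. Irf7 and Irf9 were at 0.773 and Stat2 and Irf7 at 0.648, which came to 0.417 and 0.271 with group means removed. With the mean log2 CPM of the 20 ISGF3 targets Irf7 was at 0.934, Irf9 at 0.798 and Stat2 at 0.640, and at 0.823, 0.388 and 0.213 with group means removed. The order of single livers shows it. In batch 1 the K556R livers with the least Irf7, refed replicate 4 (49.0 CPM) and fasted replicate 2 (61.3 CPM), also had the lowest target means, 3.44 and 3.39, against 4.13 to 4.63 in the other 6 K556R livers of that batch and 2.93 to 3.37 in its WT livers. The refed one is among the libraries that stand apart in their cell markers; without those 2 the correlations with the target mean were 0.932 for Irf7, 0.869 for Irf9 and 0.795 for Stat2, and 0.743, 0.447 and 0.363 with group means removed. In the same 2 livers Irf9 stood at 50.5 and 41.7 CPM, the lowest K556R levels of their feeding state in that batch but above every WT liver of batch 1. Ifnar1 and Ifnar2, 79649 bases apart on chromosome 16, were at 0.526, and at 0.186 with group means removed.

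**Figure D5:**
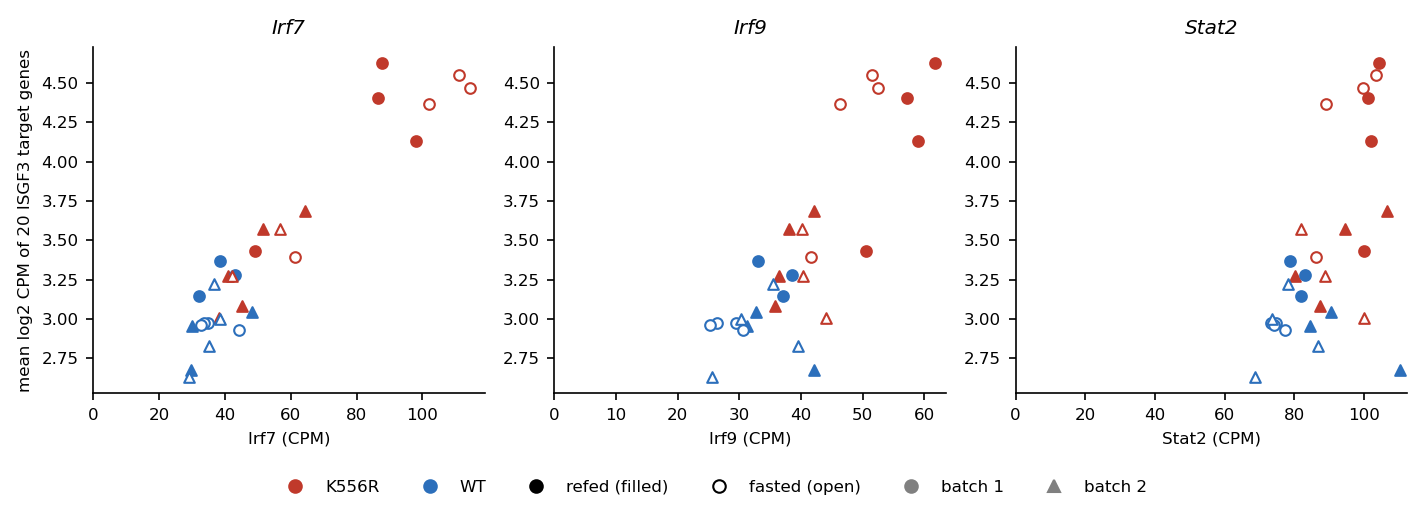
Mean log2 CPM of 20 ISGF3 target genes (y axis) against CPM of Irf7, Irf9 and Stat2 (x axes), 1 point per liver; red is K556R and blue WT, filled is refed and open fasted, circles are batch 1 and triangles batch 2. Along Irf7 the livers form 1 band ending in 6 K556R livers of batch 1 with target means of 4.13 to 4.63; along Stat2 the WT liver at 110.3 CPM has a target mean of 2.68.

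Markers of the immune cells that make or answer interferon were set beside these results. The summed level of 10 macrophage markers ran from 291.8 to 510.5 CPM in K556R refed and from 226.5 to 420.2 CPM in WT refed livers, and from 190.5 to 637.2 CPM in K556R fasted and from 203.8 to 783.6 CPM in WT fasted livers. None of the 10 was called between genotypes, though all 10 had a positive difference in the mean of both states (median 0.17). Of 12 lymphocyte markers 10 were tested and 0 called, and their sums ran from 7.47 to 15.0 CPM in K556R refed, 6.79 to 10.97 CPM in WT refed, 5.35 to 10.2 CPM in K556R fasted and 4.31 to 21.3 CPM in WT fasted livers. Over both batches these ranges overlap between genotypes, and the highest lymphocyte sum is that of 1 WT fasted liver of batch 1. In batch 2 fasted livers the lymphocyte sums were apart, 8.22 to 10.2 CPM in K556R and 4.31 to 7.60 CPM in WT. The sum of 7 hepatocyte markers was apart there too, 60982 to 67404 CPM in K556R and 67535 to 86219 CPM in WT, and overlapped in the other batches and states; 0 of these 7 were called between genotypes.

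For plasmacytoid dendritic cells, the main source of interferon alpha in blood, 6 markers summed to 15.1 to 22.2 CPM in K556R refed and 16.3 to 22.3 CPM in WT refed livers, and to 14.8 to 21.2 CPM in K556R fasted and 12.7 to 21.8 CPM in WT fasted livers. In batch 1 fasted livers the sums were apart, 18.5 to 20.0 CPM in K556R and 14.65 to 18.4 CPM in WT. Most of the sum is Tcf4 (16.9 CPM on average), which other liver cells express, while the defining Siglech averaged 0.817 CPM and Ccr9 0.473 CPM. Of the 6 markers 4 were tested and 0 called. Of 7 markers of other dendritic and monocytic cells 6 were tested, all 6 had a positive difference in the mean of both states (median 0.36), 0 were called, and their sums ran from 7.54 to 26.03 CPM in K556R refed, 9.25 to 19.1 CPM in WT refed, 12.4 to 32.7 CPM in K556R fasted and 10.4 to 20.5 CPM in WT fasted livers. The part of all these cells in the results on Irf7, Irf9 and Stat2 was not tested.

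Some counts may be shared with overlapping genes, since no source used here gives the strand setting of the counting. The exons of Irf7 share 45 bases with Phrf1 on the opposite strand, and Phrf1 differed between genotypes by 0.022 in fasted and -0.18 in refed livers (edgeR adjusted p = 0.954 and 0.435). Irf9 shares 123 exon bases with Rnf31 on the same strand, which differed by 0.19 in fasted and 0.0015 in refed livers (adjusted p = 0.578 and 0.998). Irf1 shares 135 bases with Gm17334, which had 127 counts in all against 14678 for Irf1, and the genes that overlap Ifnar2 and Tyk2 had 0 counts.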

How the data were processed

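Poly-A RNA of liver was sequenced in 29 libraries, which the labels assign to 2 batches without saying what a batch was. The authors deposited raw read counts per Ensembl gene; the submitters' processing notes name mm10, STAR, TopHat, HTSeq, edgeR, DESeq2 and STAR-Fusion, without roles. Strand setting and annotation release are not given in the sources used here. Of 54532 identifiers 54495 matched GENCODE M21; the 37 others hold 0.000917% of counts.

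The filter of edgeR kept 15603 genes (99.92% of counts). It asked for 15 counts in total and, in enough libraries, for the CPM that equals 10 counts at the median library size. edgeR 4.0.16 (R 4.3.3) scaled libraries by TMM and fitted batch and 4 groups by quasi-likelihood. SE is the log2 fold change over the square root of F. p-values were adjusted over all tested genes. DESeq2 1.42.0 and limma 3.58.1 were alternatives, as were other scaling and filters, each batch, a replicate block and single libraries left out. The edgeR fit was also run on counts simulated from its own model, with results not given here. CPM uses TMM-scaled totals; log2 CPM adds a prior count of 2; correlations use log2 CPM.

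The 9 genes and the lists were chosen with earlier results of these data known. Of each list, called genes up to 6 by size are named, or the 3 with the smallest p where none was called; for each of the 9 genes the 3 nearest are named, sought among genes whose log2 CPM averaged 1 or more. The results of a few genes that this rule names are not reported here. Figures used matplotlib 3.10.9.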

Additional observations from a re-analysis of the deposited data

Results flagged for a closer look

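For each of the 9 genes in each of the 4 groups the highest and lowest liver was set against the rest by Dixon's gap over range, 36 checks, of which 3 stood out; chance flags about 1 group in 20. Gaps and ranges were taken on the log2 scale of CPM plus a small constant, and levels are given in CPM. Socs1 in WT refed livers was at 4.19 CPM in replicate 1 of batch 2, with a gap of 0.770 of that range (n = 6). The same liver had the highest Stat2 level of all 29, 110.3 CPM, and an Irf7 level of 29.7 CPM, the lowest of its group. Socs1 in K556R refed livers was at 0.677 CPM in replicate 2 of batch 2, with a gap of 0.572 (n = 8), a value that few counts make imprecise. Jak1 in WT refed livers was at 96.3 CPM in replicate 2 of batch 2, with a gap of 0.687 (n = 6), the lowest of that group.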

How the results depend on the processing

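Counts of the 9 genes called by edgeR's test moved as follows. In fasted livers the count of 2 came to 0 without the batch term (Irf7 and Irf9 at adjusted p = 0.0899) and in batch 2 alone, came to 3 with DESeq2, which added Stat2 (adjusted p = 0.0256), and ran from 0 to 2 when single libraries were left out. In refed livers the count of 0 came to 1 with DESeq2 (Irf7) and in batch 1 alone (Irf9). For the mean of both states the count of 3 came to 0 in batch 2 alone and to 2 with no filter on low counts, where Stat2 had an adjusted p of 0.0541. On refeeding in K556R livers the count of 1 came to 2 at a minimum count of 50 and without both WT refed replicate 1 of batch 2 and K556R refed replicate 4 of batch 1 (an alternative chosen after seeing the data), adding Ifnar1 each time, and ran from 1 to 2 when single libraries were left out; in batch 2 alone the 1 gene was Ifnar1, not Ifnar2. On refeeding in WT livers the count of 0 came to 1 with DESeq2 (Stat2) and in batch 1 alone (Irf9), and ran from 0 to 3 when single libraries were left out. The cause of these moves was not tested. Without the 2 libraries just named the fasted count was 3 and the mean count 3, with Stat2 at 0.25 (adjusted p = 0.00427).

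Counts over all genes moved more. In fasted livers 16 genes were called, against 89 with DESeq2, 45 with no filter, 41 with limma-voom, 33 in batch 1 alone, 0 in batch 2 alone, 2 without the batch term and 51 without the 2 libraries. In refed livers 0 were called, against 45 with DESeq2, 10 with no filter, 5 in batch 1 alone, 7 in batch 2 alone and 3 without the 2 libraries. For the mean of both states 194 were called, against 425 with DESeq2, 98 without the batch term, 125 in batch 1 alone and 0 in batch 2 alone. On refeeding the 2397 genes in K556R livers came to 1497 in batch 1 alone, and the 1667 in WT livers to 846 in batch 1 alone and 592 in batch 2 alone.

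No pairing of the libraries by replicate number was found. Over 40 pairs of the same number and batch the correlation of deviations ran from -0.387 to 0.36 with a median of -0.0288, and 5 were over 0.1. Of the 29 libraries 9 were closest to one of their own number. The deviations are from means of 3 or 4 libraries and no chance value was computed, so the check cannot exclude pairing. With the replicate block the fasted count was 0, with Irf7 at 0.96 (adjusted p = 0.144) and Irf9 at 0.56 (adjusted p = 0.158), and 2 genes were called in all. The count for the mean of both states was 2 of the 9 and 92 of all genes, with Stat2 at an adjusted p of 0.0923. The block changed no other call of the 9 genes.

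Signs turned only for differences that were not called. In batch 1 alone Ifnar1 came to -0.044 fasted and -0.048 in the mean, Ifnar2 to 0.0056 fasted, Tyk2 to 0.030 on WT refeeding and Socs1 to 0.00015 on K556R refeeding. In batch 2 alone Tyk2 came to 0.055 fasted, refed and in the mean, Ifnar1 to 0.050, Ifnar2 to 0.016 and Stat2 to -0.045 refed, Irf1 to -0.080, Irf7 to 0.12 and Irf9 to -0.14 on K556R refeeding, and in the interaction Ifnar2 to 0.086, Tyk2 to 6.98e-07 and Irf7 to 0.081. Ifnar1 came to 0.0038 refed at a minimum count of 50 and to -0.026 in the mean without the 2 libraries, Socs1 to 0.0029 on K556R refeeding with limma-voom and to -0.24 in the batch difference without the 2 libraries.

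With single libraries left out, the fasted difference ran from -0.047 to 0.039 for Tyk2, from -0.018 to 0.053 for Ifnar1 and from -0.073 to 0.00064 for Ifnar2. The refed one ran from -0.045 to 0.045 for Ifnar1, from -0.067 to 0.0081 for Tyk2 and from -0.0039 to 0.050 for Jak1. The mean ran from -0.041 to 0.0021 for Tyk2 and from -0.012 to 0.033 for Ifnar1. The refeeding difference ran from -0.42 to 0.0042 for Socs1 in K556R and from -0.071 to 0.014 for Tyk2 and -0.11 to 0.14 for Irf7 in WT. The interaction ran from -0.075 to 0.016 for Tyk2 and from -0.065 to 0.025 for Ifnar1, and the batch difference of Socs1 from -0.25 to 0.89.

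With Spearman's correlation all 3 nearest genes stayed for Irf7 and Stat2, 2 for Irf9, Irf1 and Ifnar1 and 1 for the others; with group means removed as well 0 to 2 stayed. Depth limits Socs1, at 2 to 58 counts, and the interferon genes. Batch 1 alone gave genotype calls among the 9 genes in either state and in their mean, and batch 2 alone gave none.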
